A study of Mus musculus with 12 samples.

Results

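The interferon response and antigen presentation genes followed here are a module of 43 genes chosen by name, and all 43 were present among the 13552 genes of the heart table. By role they comprised 4 interferon receptors, 3 RNA sensors, 7 transcriptional regulators, 11 antiviral effectors, 7 interferon-induced GTPases, 6 genes of MHC class I presentation and 5 genes of MHC class II presentation. Hearts of male mice on a C57BL/6 J background were taken 9 h after surgery at 8 to 10 weeks of age, 3 mice in each of 4 groups. WT sham and WT TAC hearts carried the normal Bcl-xL gene, and KI sham and KI TAC hearts were homozygous for the S14A substitution in Bcl-xL, a survival protein of mitochondria, in every cell of the body. Transverse aortic constriction (TAC) narrows the aorta and loads the left ventricle with pressure, and sham mice had the operation without the constriction. The KI line came from gene targeting in R1 embryonic stem cells, its selection cassette was removed by crossing to a CMV-Cre strain, and it was backcrossed, while WT mice were bought from a supplier and are not described as littermates of KI mice. Each mouse gave 1 library of whole-heart poly(A) RNA.

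Interferons are secreted alarm proteins of infection and tissue injury. Type I interferons bind the receptor chains Ifnar1 and Ifnar2 and act through a complex with STAT2 and IRF9 at the interferon-stimulated response element (ISRE), whereas interferon gamma binds Ifngr1 and Ifngr2 and acts at the gamma-activated site (GAS). The genes switched on include antiviral proteins, GTPases that attack the vacuoles of intracellular microbes, and the machinery that displays peptides on MHC class I molecules of nearly all cells and on MHC class II molecules of macrophages, dendritic cells and B cells. In the heart these transcripts come from resident and recruited leukocytes as well as from endothelial cells, fibroblasts and cardiomyocytes.

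The promoters of the GTPases are shown because this was the group in which most members fell in KI hearts after TAC, and because all 6 members of this group that had a promoter window in the RefSeq table of GRCm38.p6 held the ISRE core within the 80 bases before the annotated start. The ISRE core was searched as GAAANNGAAA on both strands, and the capitals mark the matches, which overlap one another in Gbp3 and Irgm1. Stretches of 30 bases are given where GENCODE M21 places an exon inside the 80 bases before the start, and 80 bases elsewhere. Of the 30 bases printed, 22 in Gbp2 and all 30 in Irgm1 are themselves annotated as exon, and none in Gbp3.
Gbp2 (chr3:142620594-142620623, plus strand): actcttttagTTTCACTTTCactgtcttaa
Gbp3 (chr3:142559992-142560021, plus strand): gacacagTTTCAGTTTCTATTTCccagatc
Gbp7 (chr3:142530256-142530335, plus strand): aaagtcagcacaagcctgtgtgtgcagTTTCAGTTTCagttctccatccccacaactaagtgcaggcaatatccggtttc
Igtp (chr11:58199476-58199555, plus strand): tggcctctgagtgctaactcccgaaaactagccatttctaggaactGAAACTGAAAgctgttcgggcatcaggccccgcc
Irgm1 (chr11:48871428-48871457, minus strand): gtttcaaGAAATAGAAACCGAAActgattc
Irgm2 (chr11:58214897-58214976, plus strand): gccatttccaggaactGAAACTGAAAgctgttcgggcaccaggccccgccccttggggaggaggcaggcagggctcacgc
Irf8 is shown as well because it was the member that rose after TAC in both genotypes. The capitals mark its 2 matches to the GAS pattern TTCNNNGAA, in a stretch of 50 bases upstream of the start.
Irf8 (chr8:120736178-120736227, plus strand): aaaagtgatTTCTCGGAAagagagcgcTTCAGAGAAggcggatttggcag

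Among all 27025 genes of the promoter table, 3.99% held the ISRE core within 250 bases before to 50 bases after a start, and 0.947% held it within the last 80 bases before a start. Of the 34 members with a window, 16 held it (47.1%): both RNA sensors with a window, 5 of 8 antiviral effectors, all 6 GTPases, 2 of 7 regulators (Irf2 and Stat2), 1 of 5 class I genes (B2m), and none of the 4 receptors or of the 2 class II genes with a window. The GAS pattern stood in 9.55% of all genes and in 11 of the 34 members. The windows of Igtp and Irgm2, neighbours on chromosome 11, shared a run of 61 identical bases, whereas the other pairs of these 6 GTPases shared runs of 7 to 13 bases. These matches describe letters in a window, and binding was not measured.

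Depth was 23650191 to 32455166 reads on genes per library. The deposited values are RPKM (reads scaled for exon length and for the reads on genes of each library), so that levels can be compared between genes. The 11240 genes that reached 1 RPKM in 3 or more mice were tested with limma on log2(RPKM + 1), and every fold change below is a difference on that scale, which understates the change of low genes. A gene was called higher or lower where the Benjamini-Hochberg adjusted p over all 11240 genes was under 0.05. Every background share below is from this fit with all mice. For other settings and for fits without a mouse no share of all genes is given, so counts under those have no background. Of the 43 members 40 were tested, and Ciita, Dhx58 and Ifit1 were too low. Cardiomyocyte markers summed to 13510 to 23563 RPKM in every heart, which fits the labelled tissue. The median log2 fold change of these 8 markers was −0.59 after TAC in WT hearts, 0.056 in KI hearts and 0.71 for KI TAC against WT TAC, where Tnni3 and Myl2 were called higher. The 6 fibroblast markers had medians of 0.52, −0.36 and −0.71 in the same order, with Lum called lower in KI hearts. They summed to 610 RPKM in WT TAC mouse 10 and to 92.2 to 271 RPKM in the other 11 hearts. The part of these cells in the results was not tested. Heart is a mixture of cells, so that fewer cells of a type and less RNA per cell cannot be told apart in any value given here. The mice carry no record of separate litters or operation days here, so that p-values measure the spread between these 12 mice.

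The members spanned a wide range of levels, from the class I light chain B2m, with a mean of 109 RPKM over the 12 hearts, and the class I heavy chains H2-D1 (90.0 RPKM) and H2-K1 (53.1 RPKM) down to the antiviral effector Ifit1 with 13 to 56 reads per library. The 43 members together summed to 526 to 806 RPKM in WT sham, 349 to 578 in WT TAC, 558 to 756 in KI sham and 419 to 477 in KI TAC hearts. WT sham mouse 1 was the highest of all 12 and WT TAC mouse 9 the lowest. KI TAC hearts lay below every sham heart of either genotype and between the WT TAC hearts.

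**Figure D1:**
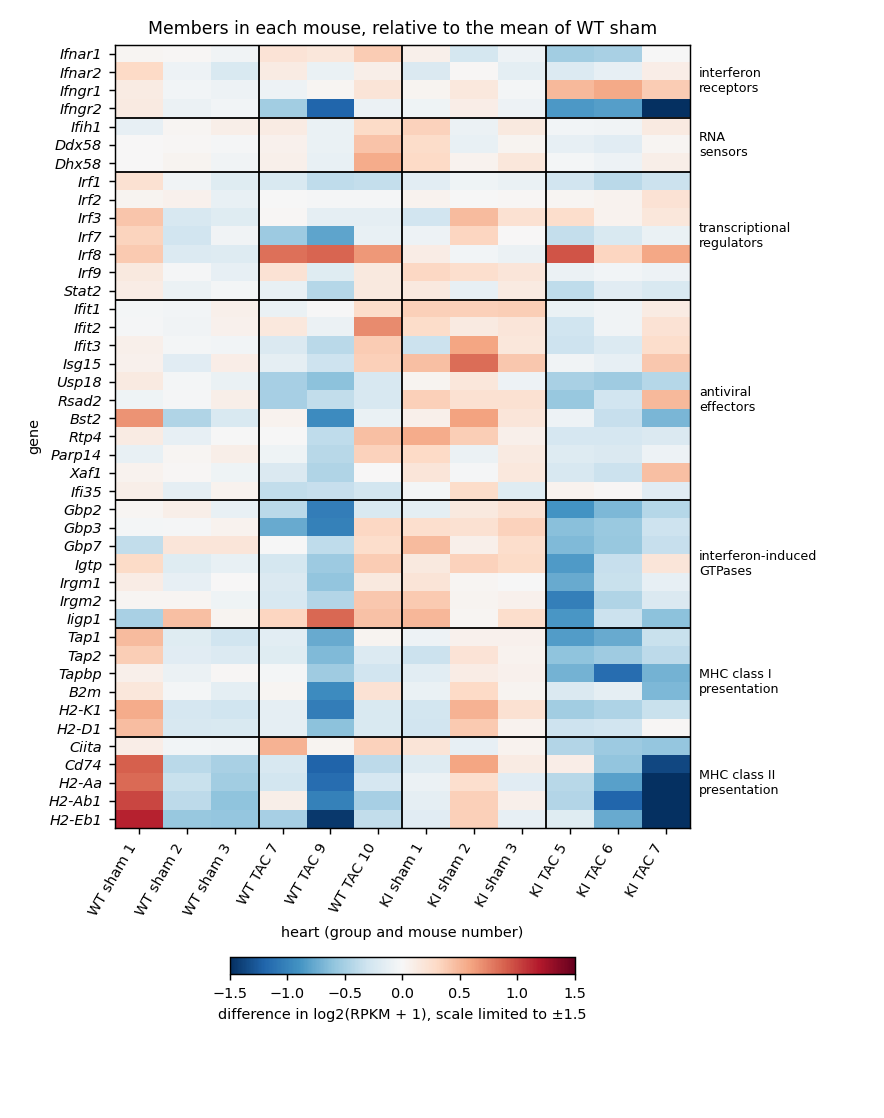
Level of each of the 43 members (rows, grouped by role) in each of the 12 hearts (columns, by group and mouse number), as the difference in log2(RPKM + 1) from the mean of the 3 WT sham hearts, with blue for lower, red for higher and the colour scale limited to ±1.5. Blue fills most of the GTPase, class I and class II rows of the 3 KI TAC hearts and of WT TAC mouse 9, while Irf8 is red in all 6 TAC hearts and the class II rows are red in WT sham mouse 1.

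In WT hearts TAC left most members without a call. Irf8 was called higher and Usp18 lower, so that 1 of 40 members was called in each direction, against a background over all genes tested of 6.96% called higher and 4.60% called lower. The lower count was 5 of 40 without mouse 10 of WT TAC (Usp18, Ifngr2, Irf7, Gbp3 and Gbp2) and 0 without any other WT heart, mouse 3 of KI sham or mouse 6 of KI TAC. The share of all genes called without a mouse is not given here, and 4.60% is not the background of these counts. The median log2 fold change of the 40 members was −0.22, beside 0.035 for all genes, and 30 of 40 lay below 0. In 2 members every WT TAC heart lay above every WT sham heart (Irf8 and Ifnar1), and in 5 every WT TAC heart lay below (Irf1, Usp18, Rsad2, Ifi35 and Gbp2), where 20.0% and 15.0% of all genes tested separated in these directions.

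In KI hearts TAC went with a fall in 10 of 40 members and a rise in 1, Irf8, against backgrounds of 14.7% called lower and 8.57% called higher. The members that fell were Tapbp, Ifngr2, Gbp7, Usp18, Iigp1, Gbp2, Irgm2, Gbp3, H2-Ab1 and Rtp4, in order of their adjusted p. The count of members that fell was 5 of 40 without any 1 of mice 1, 2 and 3 of KI sham or mice 5 and 6 of KI TAC, and 13 without mouse 7 of KI TAC. These fits have no share of all genes given beside them, and 14.7% belongs to the fit with all mice. The median of the 40 members was −0.45 on the log2 scale, beside −0.10 for all genes, and 35 of 40 lay below 0. In 22 of the 40 tested members every KI TAC heart lay below every KI sham heart, against 24.7% of all genes tested, and in 2 (Ifngr1 and Irf8) every KI TAC heart lay above, against 13.6%. Separations and values per heart are RPKM without further scaling. Median-ratio scaling, used as an alternative, divided mice 5, 6 and 7 of KI TAC by 0.8345, 0.9352 and 1.05, and KI sham hearts by 1.022 to 1.042.

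**Figure D2:**
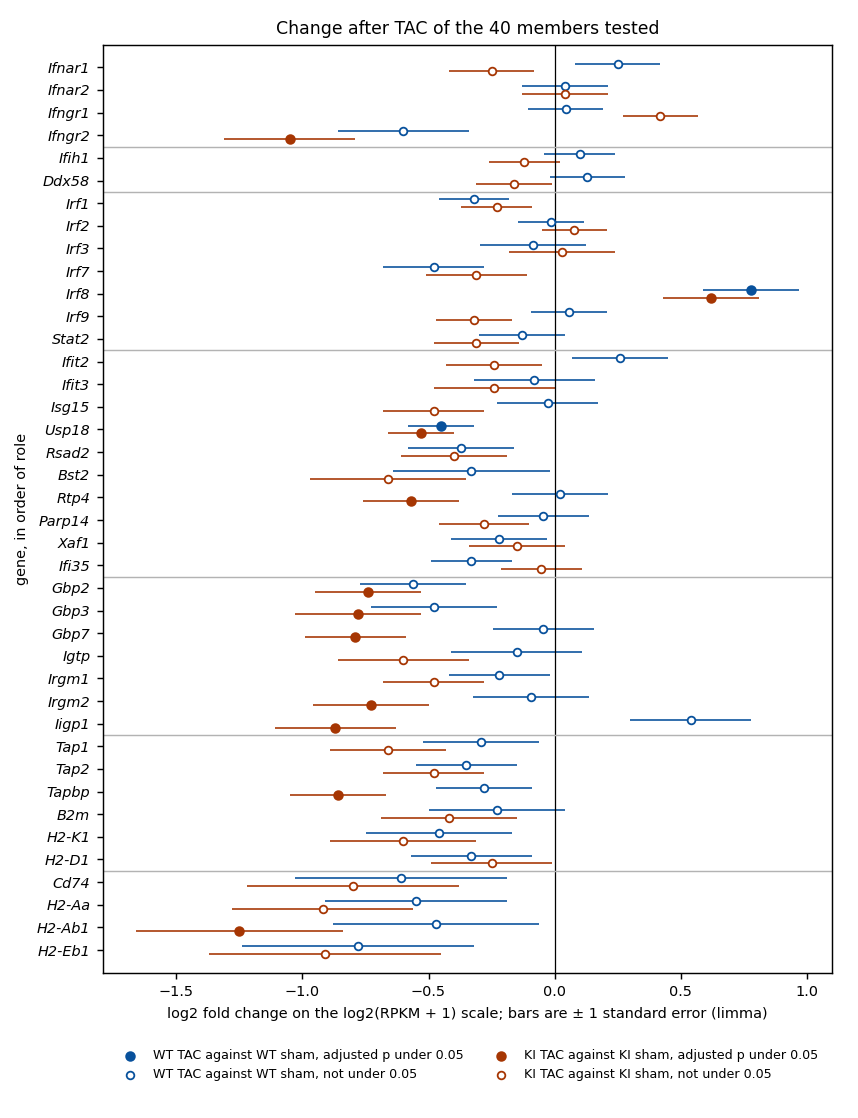
Change after TAC of the 40 members tested, one row per gene in order of role, as the log2 fold change on the log2(RPKM + 1) scale in WT hearts (blue) and KI hearts (brown), with bars of ± 1 standard error from limma and filled points where the adjusted p was under 0.05. In KI hearts all 7 GTPases, all 6 class I genes and all 4 class II genes tested lie left of 0. In WT hearts 6 of the 7 GTPases, all 6 class I genes and all 4 class II genes lie left of 0 as well. Irf8 lies right of 0 in both genotypes.

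The interferon receptors did not move together. Ifngr2 (chr16:91547072-91565623), the signalling chain of the interferon gamma receptor and the most abundant receptor transcript, was 72.3, 61.9 and 64.0 RPKM in WT sham hearts and 45.7, 28.4 and 62.0 RPKM in WT TAC hearts. It was 62.8, 70.9 and 62.4 RPKM in KI sham hearts and 35.9, 36.7 and 22.4 RPKM in KI TAC hearts. Every KI TAC heart was thus far below every sham heart, whereas WT TAC mouse 10 reached the level of sham hearts. The log2 fold change of Ifngr2 after TAC was −1.05 ± 0.26 (SE, n = 3 mice per group) in KI hearts, with an adjusted p of 0.0108 from limma, and −0.60 ± 0.26 in WT hearts, with an adjusted p of 0.152. Without WT TAC mouse 10 the WT value was −0.85, with an adjusted p of 0.0407. The difference between the genotypes' responses was −0.46 ± 0.37 and did not pass the test (adjusted p = 0.559, limma).

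Ifngr1 (chr10:19591949-19610229), the ligand-binding chain of the same receptor, had its highest levels in KI TAC hearts, at 19.7, 20.8 and 18.2 RPKM, against 13 to 15.8 RPKM in the other 9 hearts. Its log2 fold change was 0.42 ± 0.15 against KI sham (adjusted p = 0.0609, limma) and 0.43 ± 0.15 against WT TAC (adjusted p = 0.0797), both just outside the threshold. With quantile normalization these values were 0.49 and 0.51, with adjusted p of 0.0234 and 0.0397, and with median-ratio scaling 0.55 and 0.58, with adjusted p of 0.0166 and 0.0280. In KI TAC hearts the chains of the interferon gamma receptor therefore stood on opposite sides of their sham levels, with Ifngr2 at 0.484 times and Ifngr1 at 1.36 times the KI sham mean in RPKM.

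Ifnar1 (chr16:91485238-91507441), a chain of the type I interferon receptor, differed between the TAC groups. It was 9.95, 9.69 and 11.4 RPKM in WT TAC hearts and 5.60, 5.77 and 8.43 RPKM in KI TAC hearts, with sham hearts between 6.89 and 9.02 RPKM. No KI TAC heart reached the level of a WT TAC heart, although KI TAC mouse 7 lay among the sham hearts. Between KI TAC and WT TAC its log2 fold change was −0.60 ± 0.17, with an adjusted p of 0.0413 from limma, and the adjusted p rose to between 0.0516 and 0.153 under 9 alternatives, among them median-ratio scaling and fits that left out mouse 7 or 10 of WT TAC or mouse 5 or 6 of KI TAC. Ifnar2, its partner chain, was 8.79 to 13.1 RPKM in all 12 hearts and was not called in any comparison. Ifnar1, Ifnar2 and Ifngr2 lie within a stretch of chromosome 16 between 91372783 and 91565623.

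**Figure D3:**
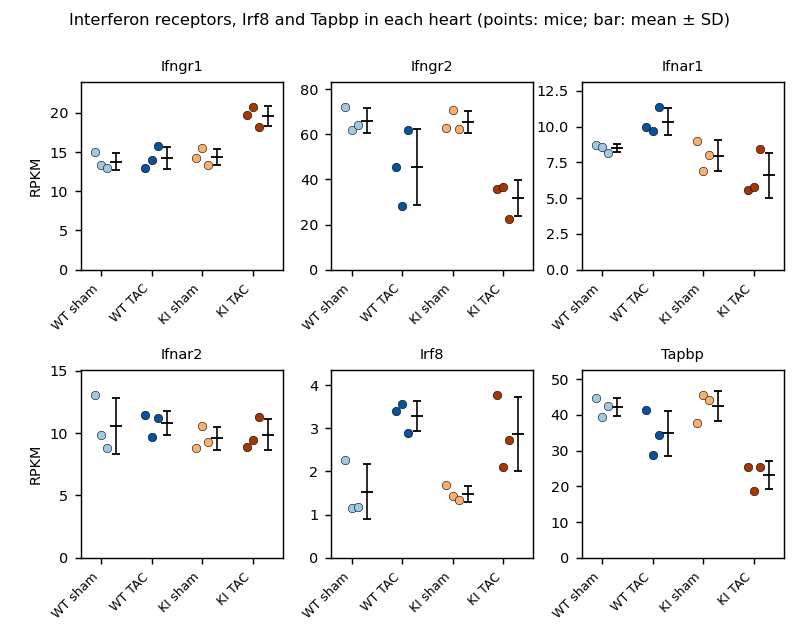
RPKM of the 4 interferon receptor chains, Irf8 and Tapbp in each heart (points), by group, with the mean ± SD of 3 mice as bars and each axis starting at 0. The group means of Ifngr2 and Tapbp are lowest and that of Ifngr1 highest in KI TAC hearts, and Irf8 is higher in TAC hearts of both genotypes than in the sham hearts of the same genotype.

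Of the RNA sensors, which detect viral RNA in the cytoplasm, Ddx58 (RIG-I) had the highest level, at 1.62, 1.63 and 1.57 RPKM in WT sham, 1.73, 1.43 and 2.50 in WT TAC, 2.15, 1.42 and 1.68 in KI sham and 1.39, 1.32 and 1.67 in KI TAC hearts. The groups overlapped. Ifih1 (MDA5) ranged from 0.675 to 1.30 RPKM, and neither it nor Ddx58 was called in any comparison. Dhx58 (LGP2), which was not tested, ranged from 0.403 to 1.23 RPKM.

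Among the regulators Irf8 (chr8:120736358-120756694), a transcription factor of macrophage and dendritic cell development, rose after TAC in both genotypes. It was 2.27, 1.16 and 1.17 RPKM in WT sham hearts and 3.40, 3.56 and 2.89 RPKM in WT TAC hearts. It was 1.69, 1.42 and 1.34 RPKM in KI sham hearts and 3.78, 2.10 and 2.72 RPKM in KI TAC hearts. TAC and sham hearts of a genotype did not overlap, and WT sham mouse 1 was the highest of the sham hearts. Irf8 rose by 0.78 ± 0.19 on the log2 scale in WT hearts (adjusted p = 0.0178, limma) and by 0.62 ± 0.19 in KI hearts (adjusted p = 0.0315). The responses differed by −0.16 ± 0.27 (adjusted p = 0.789). In WT hearts the adjusted p was 0.0520 to 0.0815 without mouse 2 or 3 of WT sham or mouse 7 or 9 of WT TAC, and in KI hearts it was 0.0515 to 0.122 without mouse 2 or 3 of KI sham or mouse 5 or 7 of KI TAC.

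Leukocyte markers were measured in the same hearts. The 5 pan-leukocyte markers (Ptprc, Cd52, Coro1a, Laptm5 and Cd53) summed to 9.35 to 11.7 RPKM in WT sham, 21.5 to 33.1 in WT TAC, 9.71 to 12.3 in KI sham and 11.8 to 17.7 in KI TAC hearts, and none was at 0 throughout. Of the 4 that were tested, all 4 were called higher in WT hearts after TAC, 1 in KI hearts, and 3 were called lower in KI TAC hearts when set against WT TAC hearts. The median log2 fold change of these 4 after TAC was 1.06 in WT and 0.33 in KI hearts. The 9 macrophage markers summed to 122 to 186, 197 to 313, 132 to 160 and 158 to 197 RPKM in the same order, with 4 called higher in WT hearts (Adgre1, Cd68, Cx3cr1 and Lyz2) and, in KI hearts, 0 higher and 1 lower (Csf1r). The 2 monocyte markers present, Ccr2 and Chil3, summed to 0.0688 to 0.221, 3.64 to 5.89, 0.128 to 0.242 and 0.466 to 0.844 RPKM. Chil3 was called higher after TAC in WT hearts (1.98 ± 0.21) and lower in KI TAC than WT TAC hearts (−1.40 ± 0.21). The 3 neutrophil markers present summed to 0.508 to 1.27, 3.69 to 9.87, 0.395 to 0.505 and 4.18 to 20.3 RPKM. After TAC 2 of these 3 were called higher in WT hearts (median log2 fold change 1.14) and all 3 in KI hearts (1.91), with none called between the TAC groups. Markers of B cells and of T or NK cells were not analysed here. The part of these cells in the change of Irf8 was not tested.

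The other regulators had no call with all mice in the fit. Irf3, which drives interferon transcription and had the highest regulator level, was 10.8, 6.49 and 6.82 RPKM in WT sham, 7.97, 7.08 and 7.03 in WT TAC, 6.24, 11.3 and 9.35 in KI sham and 9.64, 8.18 and 8.97 in KI TAC hearts. The SD within each sham group was larger than any difference between group means. Irf1, a factor induced by interferon gamma, ranged from 2.67 to 4.69 RPKM and Irf7, which amplifies type I interferon production, from 1.99 to 5.54 RPKM. Their log2 fold changes after TAC were −0.32 ± 0.14 and −0.48 ± 0.20 in WT hearts (adjusted p = 0.154 and 0.144, limma) and −0.23 ± 0.14 and −0.31 ± 0.20 in KI hearts (adjusted p = 0.252 and 0.283). Without mouse 10 of WT TAC, Irf7 was called lower in WT hearts (−0.67, adjusted p = 0.0454). Irf9 and Stat2, which act together at the ISRE, stood at 5.21 to 5.78 and 4.20 to 5.23 RPKM in KI sham hearts and at 4.14 to 4.31 and 3.33 to 4.02 RPKM in KI TAC hearts. These ranges did not overlap, and the log2 fold changes of −0.32 ± 0.15 and −0.31 ± 0.17 had adjusted p of 0.140 and 0.187. Irf2, a factor that binds the same element, ranged from 2.74 to 3.68 RPKM.

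Of the antiviral effectors Usp18 (chr6:121245906-121270917), the protease that removes ISG15 from proteins and restrains signalling from the type I interferon receptor, fell in both genotypes. It was 1.83, 1.53 and 1.42 RPKM in WT sham hearts and 0.836, 0.690 and 1.19 RPKM in WT TAC hearts. It was 1.67, 1.90 and 1.46 RPKM in KI sham hearts and 0.852, 0.792 and 0.921 RPKM in KI TAC hearts. All 6 TAC hearts lay below all 6 sham hearts. These levels rest on 57 to 164 reads per library. Usp18 changed by −0.45 ± 0.13 on the log2 scale in WT hearts (adjusted p = 0.0428, limma) and by −0.53 ± 0.13 in KI hearts (adjusted p = 0.0119). Its KI call held under every alternative that tested the gene, and the WT call was lost under 10, with limma-voom on the recovered reads (adjusted p = 0.0546) and in the fit of the 2 WT groups alone (0.0787) among them.

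Rtp4 (chr16:23520291-23614222), a receptor transporter protein induced by type I interferon, was 2.09, 1.59 and 1.82 RPKM in WT sham and 1.82, 1.17 and 2.86 RPKM in WT TAC hearts. It was 3.15, 2.66 and 1.97 RPKM in KI sham and 1.38, 1.38 and 1.44 RPKM in KI TAC hearts, which formed the tightest group. The log2 fold change in KI hearts was −0.57 ± 0.19 (adjusted p = 0.0455, limma), and the call was lost under 12 alternatives, including quantile normalization (0.0541) and limma-voom (0.0607). In the annotation 13.9% of its exon bases lie in exons of an overlapping gene on the same strand, so that some of its reads could have been set aside or split.

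Bst2 (tetherin), which holds budding viruses at the cell surface, was the most abundant antiviral effector, at 24, 10.5 and 12.4 RPKM in WT sham, 15.2, 7.18 and 13.6 in WT TAC, 15.5, 22.9 and 16.8 in KI sham and 13.9, 11.3 and 8.75 in KI TAC hearts. KI TAC hearts lay below KI sham hearts, while the WT groups overlapped, and no comparison was called (−0.66 ± 0.31, adjusted p = 0.138, KI TAC against KI sham, limma). The other 7 tested effectors, Ifit2, Ifit3, Isg15, Rsad2, Parp14, Xaf1 and Ifi35, ranged from 0.523 RPKM for Ifit3 to 7.62 RPKM for Ifi35 over all hearts, and none was called. Their log2 fold changes lay between −0.37 and 0.26 in WT hearts and between −0.48 and −0.053 in KI hearts. Without mouse 7 of KI TAC, Rsad2 (−0.70, adjusted p = 0.00566, limma) and Isg15 (−0.65, adjusted p = 0.0339) were called lower in KI hearts, and so was Isg15 without mouse 10 of WT TAC (−0.48, adjusted p = 0.0481). Isg15, the ubiquitin-like protein that Usp18 removes, was the member with the smallest p between the sham groups, at 1.11, 0.782 and 1.16 RPKM in WT sham and 1.75, 2.59 and 1.67 RPKM in KI sham hearts (0.56 ± 0.20 on the log2 scale, adjusted p = 1.0, limma). Its groups did not overlap, and it rests on 14 to 59 reads per library. Ifit1, untested, was 0.632, 0.636 and 0.650 RPKM in KI sham hearts and 0.186 to 0.548 RPKM in the other hearts, on 13 to 56 reads. Without the filter on low values Ifit1 was called lower after TAC in KI hearts (−0.38, adjusted p = 0.0156, limma).

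The interferon-induced GTPases were the role with the largest share of calls in KI hearts. All 7 had log2 fold changes below 0 after TAC, from −0.87 to −0.48 with a median of −0.74, and 5 of 7 (71.4%) were called lower, beside the 14.7% of all genes. In WT hearts none was called, and the values ran from −0.56 to 0.54 with a median of −0.15. The WT count became 2 of 7 without mouse 10 of WT TAC (Gbp2 and Gbp3), and 1 of 7 (Gbp2) with quantile normalization or median-ratio scaling. In KI hearts the median stayed below 0 with quantile normalization and median-ratio scaling (−0.64 in both) and with limma-voom (−0.97), each with 5 of 7 called lower. The count depended on single mice: it was 1 of 7 (Gbp7) without mouse 3 of KI sham or mouse 5 of KI TAC, 2 of 7 without mouse 1 or 2 of KI sham or mouse 6 of KI TAC, 3 of 7 without mouse 2 or 3 of WT sham, and 7 of 7 without mouse 7 of KI TAC. No share of all genes is given for these fits or scalings, and 14.7% is not their background. The sum below is over all 7 GTPases. Their sum was 22.4, 24.5 and 22.6 RPKM in WT sham, 19.3, 17.3 and 28.7 in WT TAC, 28.7, 25.7 and 27.4 in KI sham and 9.76, 14.7 and 18.2 in KI TAC hearts. All 3 KI TAC hearts lay below all sham hearts, and KI TAC mouse 7 lay between the WT TAC hearts.

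Gbp2 (chr3:142620602-142638008), a guanylate-binding protein, was 4.55, 4.76 and 4.03 RPKM in WT sham and 3.12, 1.64 and 3.64 in WT TAC hearts, 3.92, 5.02 and 5.35 in KI sham and 1.93, 2.41 and 3.04 in KI TAC hearts. All TAC hearts lay below all sham hearts. Gbp2 changed by −0.74 ± 0.21 on the log2 scale in KI hearts (adjusted p = 0.0197, limma) and −0.56 ± 0.21 in WT hearts (adjusted p = 0.0946), and the WT value was called with quantile normalization (−0.62, adjusted p = 0.0300), with median-ratio scaling (−0.58, adjusted p = 0.0444) and without mouse 10 of WT TAC (−0.72, adjusted p = 0.0386). The KI call was lost without mouse 2 or 3 of KI sham or mouse 5 or 6 of KI TAC (adjusted p up to 0.0834).

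Gbp3 (chr3:142560026-142573209), of the same family, was 1.92, 1.93 and 2.08 RPKM in WT sham hearts but 0.762, 0.476 and 2.70 in WT TAC hearts. In KI hearts it was 2.54, 2.50 and 2.78 RPKM after sham and 0.930, 1.02 and 1.40 after TAC. WT TAC mouse 10 thus stood above all WT sham hearts while the other WT TAC hearts lay below all KI TAC hearts. Mouse 10 also had the highest marker sums of all hearts for fibroblasts (610 RPKM), cardiomyocytes (23563), pan-leukocyte genes (33.1) and macrophages (313). Its endothelial sum (237 RPKM) was the lowest. The part of these cells in this value was not tested. The log2 fold change of Gbp3 was −0.78 ± 0.25 in KI hearts (adjusted p = 0.0387, limma) and −0.48 ± 0.25 in WT hearts (adjusted p = 0.225). Without WT TAC mouse 10 the WT value was −0.88, with an adjusted p of 0.00228. The KI call was lost under 8 of 20 alternatives, with a pseudocount of 0.1 and without mouse 2 or 3 of WT sham, any KI sham mouse or mouse 5 or 6 of KI TAC, with adjusted p up to 0.111.

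Gbp7 (chr3:142530342-142550149) fell in KI hearts under every alternative that tested it. It was 3.72, 2.56 and 3.05 RPKM in KI sham and 1.14, 1.28 and 1.67 RPKM in KI TAC hearts, with no overlap, and 1.63, 2.85 and 2.83 RPKM in WT sham and 2.36, 1.59 and 3.07 RPKM in WT TAC hearts, which overlapped. On the log2 scale its change was −0.79 ± 0.20 in KI hearts (adjusted p = 0.0116, limma) and −0.044 ± 0.20 in WT hearts (adjusted p = 0.913), and the interaction was −0.75 ± 0.28 (adjusted p = 0.250). In the annotation 11.3% of its exon bases are shared with an overlapping gene on the same strand.

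Iigp1, an immunity-related GTPase, had the largest log2 difference between the TAC groups among the 40 tested members. It was 2.12, 5.0 and 3.51 RPKM in WT sham and 4.50, 6.98 and 4.97 RPKM in WT TAC hearts. It was 5.18, 3.47 and 4.25 RPKM in KI sham and 1.39, 2.51 and 1.86 RPKM in KI TAC hearts. No KI TAC heart overlapped a WT TAC or KI sham heart. KI TAC hearts lay below WT TAC hearts by −1.15 ± 0.24 on the log2 scale (adjusted p = 0.0127, limma), a call kept under every alternative that tested it, and lower than KI sham by −0.87 ± 0.24 (adjusted p = 0.0191), a call lost without KI sham mouse 1 or 3 or KI TAC mouse 5 (0.0587 to 0.0740). In WT hearts the change was 0.54 ± 0.24 (adjusted p = 0.153). The interaction of genotype and surgery, −1.41 ± 0.34, had the smallest p of the members (unadjusted 0.000933) and an adjusted p of 0.124, so that the responses of the genotypes were not shown to differ.

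Irgm2 (chr11:58199618-58222782), a regulator of the immunity-related GTPases, was 4.63, 4.62 and 4.27 RPKM in WT sham, 3.66, 3.05 and 6.31 in WT TAC, 6.20, 4.64 and 4.76 in KI sham and 1.70, 3.03 and 3.73 in KI TAC hearts. In KI hearts its log2 fold change was −0.73 ± 0.23 (adjusted p = 0.0383, limma). The call was lost under 7 of the fits that leave out a mouse, with adjusted p up to 0.152 without KI TAC mouse 5. Irgm1 and Igtp, its relatives, ranged from 0.983 to 2.85 and from 1.68 to 5.26 RPKM and changed by −0.48 ± 0.20 and −0.60 ± 0.26 in KI hearts (adjusted p = 0.0912 and 0.114). Without KI TAC mouse 7, the KI TAC heart highest in both, these were −0.62 and −0.86, with adjusted p of 0.0447 and 0.0297. Igtp and Irgm2 overlap on the same strand in the annotation, with 162 exon bases in common, and reads of near copies within the GTPase families may have been divided or lost in counting.

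**Figure D4:**
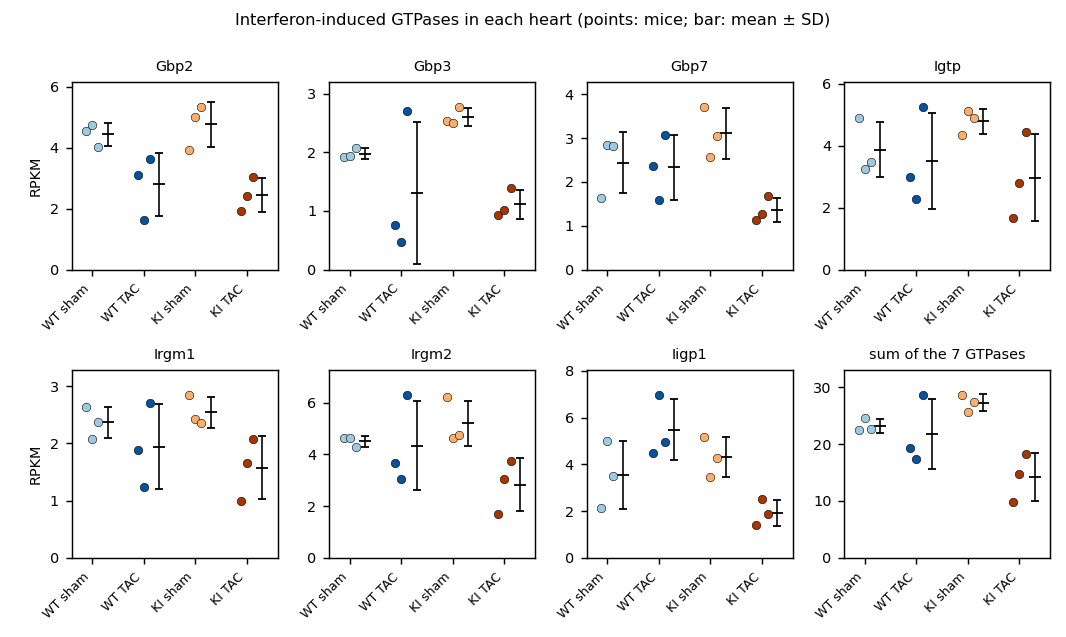
RPKM of the 7 interferon-induced GTPases and of their sum in each heart (points), by group, with the mean ± SD of 3 mice as bars and each axis starting at 0. The KI TAC points lie below the KI sham points in all panels but that of Igtp. The WT TAC points overlap the WT sham points in all panels but that of Gbp2.

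Of the class I genes Tapbp (chr17:33915899-33929292), tapasin, which bridges the class I molecule to the peptide transporter, fell in KI hearts. It was 44.7, 39.5 and 42.6 RPKM in WT sham and 41.3, 28.8 and 34.4 RPKM in WT TAC hearts. It was 37.8, 45.7 and 44.1 RPKM in KI sham and 25.4, 18.6 and 25.4 RPKM in KI TAC hearts, the lowest of all 12. Tapbp differed by −0.86 ± 0.19 on the log2 scale from KI sham (adjusted p = 0.00542, limma, the smallest of the members and kept under every alternative), by −0.57 ± 0.19 from WT TAC (adjusted p = 0.0639, and 0.0396 without WT TAC mouse 9) and by −0.28 ± 0.19 between WT TAC and WT sham (adjusted p = 0.346).

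B2m, the invariant light chain and the most abundant member, was 130, 113 and 104 RPKM in WT sham, 118, 59.2 and 134 in WT TAC, 107, 142 and 119 in KI sham and 98.7, 105 and 72.1 in KI TAC hearts. WT TAC mouse 9 was far below the other WT TAC hearts, and the change in KI hearts was −0.42 ± 0.27 (adjusted p = 0.281, limma). Tap1 and Tap2, the chains of the peptide transporter, changed by −0.66 ± 0.23 and −0.48 ± 0.20 in KI hearts (adjusted p = 0.0570 and 0.0997), with KI TAC below KI sham in every heart, and Tap1 was called with limma-voom (−0.88, adjusted p = 0.0496), in the fit of the 2 KI groups alone (adjusted p = 0.0267) and without mouse 1 of WT sham, mouse 9 or 10 of WT TAC or mouse 7 of KI TAC (0.0323 to 0.0434). H2-K1 and H2-D1, the class I heavy chains, ranged from 27.8 to 85.3 and from 61.9 to 132 RPKM and were not called. They belong to a family of near-identical genes, so that their reads could have been split between copies. In KI hearts H2-K1 and H2-D1 changed by −0.60 ± 0.29 and −0.25 ± 0.24. In WT hearts B2m, Tap1, Tap2, H2-K1 and H2-D1 changed by −0.23 ± 0.27, −0.29 ± 0.23, −0.35 ± 0.20, −0.46 ± 0.29 and −0.33 ± 0.24, and none was called. The 6 class I genes summed to 247, 250 and 248 RPKM in KI TAC hearts, below all KI sham hearts (280, 409 and 342), and to 407, 291 and 285 RPKM in WT sham and 308, 184 and 309 RPKM in WT TAC hearts.

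Among the class II genes H2-Ab1 (chr17:34257689-34269419), a class II beta chain, was called lower in KI hearts after TAC. It was 32.3, 11.7 and 10.0 RPKM in WT sham, 16.8, 7.29 and 10.8 in WT TAC, 14.2, 20.4 and 16.6 in KI sham and 11.3, 6.32 and 3.73 in KI TAC hearts. KI TAC hearts lay below KI sham hearts, and WT sham mouse 1 stood far above the other two WT sham hearts. In KI hearts it changed by −1.25 ± 0.41 on the log2 scale (adjusted p = 0.0429, limma). The call was lost with quantile normalization (adjusted p = 0.0557), with median-ratio scaling (0.0772) and without any of the KI hearts except KI TAC mouse 5 (0.0622 to 0.147).

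Cd74, the invariant chain that escorts class II molecules, was the most abundant class II transcript, at 103, 41.1 and 38.7 RPKM in WT sham, 46.4, 23.3 and 41.5 in WT TAC, 47.7, 83.4 and 59.7 in KI sham and 58.9, 35.9 and 20.6 in KI TAC hearts. The groups overlapped, and the change in KI hearts was −0.80 ± 0.42 (adjusted p = 0.182, limma). H2-Aa and H2-Eb1 ranged from 1.39 to 11.5 and from 3.96 to 35.5 RPKM and changed by −0.92 ± 0.36 and −0.91 ± 0.46 in KI hearts (adjusted p = 0.0799 and 0.168). H2-Aa was called lower without mouse 1 of WT sham (−0.92, adjusted p = 0.0355) and in the fit of the 2 KI groups alone (adjusted p = 0.0285). In WT hearts H2-Ab1, Cd74, H2-Aa and H2-Eb1 changed by −0.47 ± 0.41, −0.61 ± 0.42, −0.55 ± 0.36 and −0.78 ± 0.46, and none was called. Their interactions ran from −0.78 to −0.14, and none was called. The 5 class II genes summed to 183 RPKM in WT sham mouse 1, against 67.9 and 63.1 in the other WT sham hearts, and to 29.7 RPKM in KI TAC mouse 7, the lowest of all 12. The pan-leukocyte sum of WT sham mouse 1 was 11.7 RPKM, the highest of its group, and its macrophage sum was 186 RPKM, against 131 and 122. Of the dendritic cell markers, Itgax was highest in that mouse (0.246 RPKM, against 0.0704 and 0.0852) and Clec9a lowest (0.208 RPKM, against 0.501 and 0.460).

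Ciita (chr16:10480059-10528418), the transactivator on which class II transcription depends, was 0.702, 0.554 and 0.532 RPKM in WT sham hearts and 1.29, 0.634 and 1.03 RPKM in WT TAC hearts. It was 0.828, 0.469 and 0.656 RPKM in KI sham hearts and 0.173, 0.0960 and 0.0665 RPKM in KI TAC hearts, which correspond to 50, 29 and 20 reads. Every KI TAC heart was well below each of the other 9 hearts. Ciita missed the filter on low values. Without that filter it was called lower in KI hearts after TAC (log2 fold change −0.57, adjusted p = 0.00555, limma) and lower against WT TAC hearts (−0.82, adjusted p = 0.00481). In RPKM the KI TAC mean was 0.172 times the KI sham mean and 0.114 times the WT TAC mean, larger differences than the logarithm with a pseudocount of 1 shows. Of the 9 macrophage markers 6 lay above 0 and 3 below in KI hearts after TAC, from −0.53 to 0.84 on the log2 scale with a median of 0.11, and Csf1r, the receptor of a macrophage growth factor, was called (−0.53 ± 0.17, adjusted p = 0.0419, limma). Set against WT TAC hearts, 6 of the 9 lay below 0, from −1.15 to 0.16 with a median of −0.55, and 3 were called lower (Adgre1, Csf1r and Cx3cr1). The 2 dendritic cell markers present, Itgax and Clec9a, summed to 0.533 to 0.609 RPKM in KI sham, 0.744 to 1.01 RPKM in KI TAC and 0.952 to 1.47 RPKM in WT TAC hearts. The part of these cells in the low Ciita values was not tested.

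**Figure D5:**
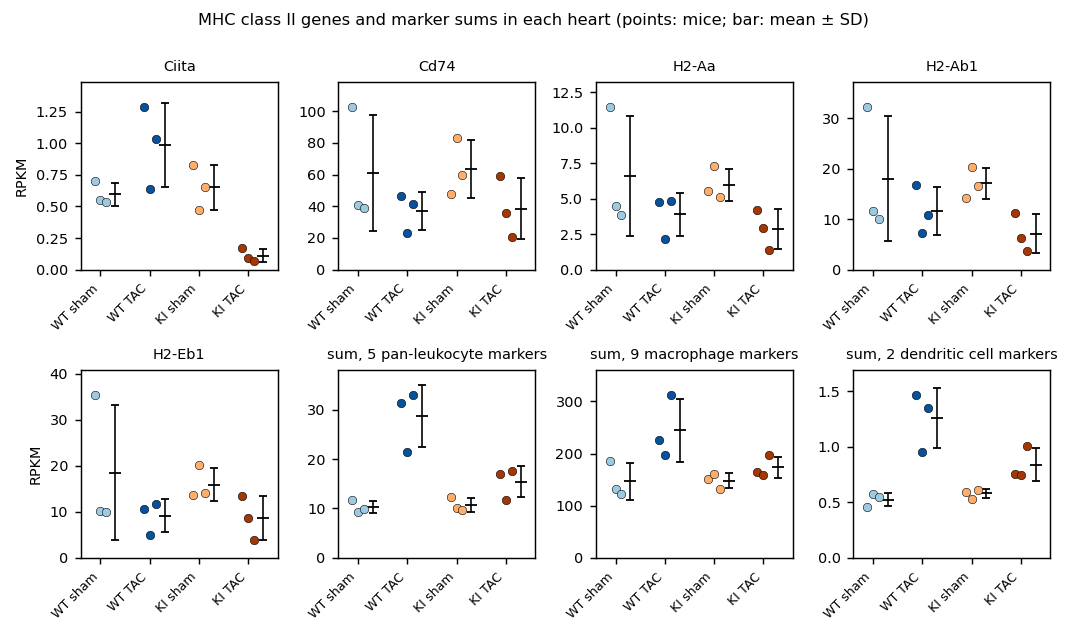
RPKM of the 5 class II genes and summed RPKM of the pan-leukocyte (5 genes), macrophage (9) and dendritic cell (2) markers in each heart (points), by group, with the mean ± SD of 3 mice as bars and each axis starting at 0. Ciita lies near 0 in KI TAC hearts only, the structural class II genes are highest in WT sham mouse 1, and the marker sums have their highest group mean in WT TAC hearts.

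Compared directly, KI TAC and WT TAC hearts differed in few members. None was called higher and 2 of 40 lower (Iigp1 and Ifnar1), against backgrounds of 2.92% and 8.13%. The lower count was 4 without mouse 9 of WT TAC, where Tapbp (−0.70, adjusted p = 0.0396, limma) and Gbp7 (−0.65, adjusted p = 0.0487) joined, and 1 without any 1 of mice 2 and 3 of WT sham, 7 and 10 of WT TAC, 3 of KI sham, and 5 and 6 of KI TAC. Shares of all genes called in these fits are not given here. The median log2 fold change was −0.12 for the members and for all genes alike, and with quantile normalization and median-ratio scaling, which bring the median of all genes to 0, the members' median was −0.0054 and 0.0077. In 4 members (Ifngr1, Irf2, Irf3 and Ifi35) every KI TAC heart lay above every WT TAC heart, against 10.1% of all genes, and in 3 (Ifnar1, Iigp1 and Tapbp) every KI TAC heart lay below, against 19.4%.

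Between the sham groups no member was called, against a background of 0.0178%, with 1 of 40 (Isg15) at an unadjusted p under 0.05 and 0 called by limma-voom. The values of 33 of 40 members lay above 0 in KI sham hearts, with a median of 0.084 beside 0.0068 for all genes. In 6 members (Irf9, Ifit2, Isg15, Rsad2, Gbp3 and Irgm2) every KI sham heart lay above every WT sham heart, against 2.08% of all genes, and in none every KI sham heart lay below, against 1.19%. The KI sham hearts are also the reference of the KI response to TAC, so that the comparisons share these mice. In the interaction 0 of 40 members was called, against 0% of all genes, with 4 at an unadjusted p under 0.05 (Iigp1, Gbp7, Rtp4 and Tapbp, all negative) and 0 called by limma-voom. The median interaction was −0.21 for the members and −0.13 for all genes. The share of all genes at an unadjusted p under 0.05 is not given here, for the sham groups or for the interaction.

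Of 105 further genes of the pathways, 85 were in the table and 71 were tested. In WT hearts 8 rose and 0 fell after TAC, that is 11.3% and 0% beside the backgrounds of 6.96% and 4.60%. At an unadjusted p under 0.05 there were 17, and limma-voom called 9, with no share of all genes given here for either. Among the genes that rose were Socs3, a feedback inhibitor of cytokine signalling (log2 fold change 2.90 ± 0.34), Sting1, the adaptor of DNA sensing (1.24 ± 0.24), Ctss, the protease that trims the invariant chain (1.15 ± 0.26), and Stat3 (1.05 ± 0.19). In KI hearts 7 rose and 14 fell, 9.86% and 19.7% beside 8.57% and 14.7%. Socs3 (3.70 ± 0.34), Sting1 (1.24 ± 0.24), Stat3 (0.89 ± 0.19) and Ifitm2, which blocks virus entry (0.87 ± 0.19), had the largest rises among genes called. H2-Q7, a class I heavy chain (−1.22 ± 0.35), Cmpk2, an antiviral nucleotide kinase (−1.17 ± 0.18), Tyk2, a kinase of the type I interferon receptor (−0.98 ± 0.17), and H2-T24 (−0.76 ± 0.17) had the largest falls among genes called. The falls covered 5 of 18 tested class I genes, 5 of 29 antiviral effectors, 2 of 13 signal transducers, 1 of 3 GTPases and 1 of 8 class II genes.

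Tyk2 was 8.97, 9.63 and 10.5 RPKM in WT sham, 9.53, 6.58 and 9.57 in WT TAC, 9.24, 8.99 and 11 in KI sham and 4.64, 3.81 and 4.86 in KI TAC hearts, which were the lowest of all 12. Against WT TAC hearts it was lower in KI TAC hearts as well (−0.80 ± 0.17, adjusted p = 0.0146, limma), as was H2-T24 (−0.58 ± 0.17), while Slfn2 was higher (0.53 ± 0.12). With limma-voom the call of H2-T24 was lost. The response of Tyk2 was not shown to differ between genotypes (adjusted p = 0.175 for the interaction).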

How the data were processed

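RNA of 12 hearts, 3 per group, was sequenced as poly(A)-selected single reads. Per the labels and the study's methods, the authors used Trimmomatic 0.39, HISAT2 2.2.1 on GRCm38 and HTSeq 0.6.1, and deposited RPKM values of 13552 genes. The step from counts to RPKM and the filter on genes are not given in the sources used here. RPKM times GENCODE M21 exon length summed to 997702 to 1002226 per mouse, and 97.85% to 98.21% of low values were whole reads within 0.05, which gave the depth (23650191 to 32455166 reads).

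Groups came from the sample labels. limma 3.58.1 in R 4.3.3 (trend) was fitted to log2(RPKM + 1) of the 11240 genes that reached 1 RPKM in 3 or more mice, with 4 groups and all 12 mice, and was tested on simulated data. A design for counts had been foreseen, and RPKM took its place. The members, the further pathway genes and the marker lists were chosen with earlier results of these data known. Every member is named, with values per mouse for those called in any comparison and for the most abundant member of each role, and at most 4 further genes per direction. Alternatives were a pseudocount of 0.1, no filter, a mean of at least 5 RPKM, quantile normalization, median-ratio scaling, limma-voom on recovered reads, fits of the 2 groups compared, a minimum log2 fold change of 0.5, a threshold of 0.10, a replicate block and leaving out each mouse. Promoter windows were RefSeq's. Protein sequences were not used here. Values of some further pathway genes are not reported here. Tables were handled with Python 3.11.15, pandas 2.3.3 and numpy 2.4.6, and plots drawn with matplotlib 3.10.9.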

Additional observations from a re-analysis of the deposited data

How the results depend on the processing

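The 15 calls of 12 members gave 304 values under the alternatives, of which 236 kept the call, 68 lost it and 0 reversed. Ifngr2, Usp18, Gbp7 and Tapbp in KI TAC against KI sham and Iigp1 in KI TAC against WT TAC kept theirs under every alternative that tested them. Members higher and lower in WT hearts after TAC were 1 and 1, and became 0 and 0 at a mean of at least 5 RPKM, which leaves 5729 genes and 15 members and removes Irf8 and Usp18 from the test. The lower count was 2 with quantile normalization, median-ratio scaling or an adjusted p of 0.10, and 0 with limma-voom, a fit of the 2 groups or a log2 fold change of at least 0.5. In KI hearts 1 was higher and 10 lower. At a mean of at least 5 RPKM these were 0 and 3 of 15, where Ifngr2, Tapbp and H2-Ab1 kept their calls and the other 8 called members were not tested. With quantile normalization or median-ratio scaling 2 were higher and 8 lower, and at an adjusted p of 0.10 these were 2 and 15. For KI TAC against WT TAC, 0 higher became 1 with those same 3 settings, and 2 lower became 1 at a mean of at least 5 RPKM (Iigp1 not tested), with median-ratio scaling or in a fit of the 2 groups. The share of all genes called under each setting is not given here, so these counts have no background. In KI hearts after TAC the median of all genes was −0.10 in the main fit, −0.02 with quantile normalization and 0.003 with median-ratio scaling.

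Leaving out a mouse gave 0 to 1 higher and 0 to 5 lower in WT hearts, 0 to 1 higher and 5 to 13 lower in KI hearts, and 0 higher and 1 to 4 lower for KI TAC against WT TAC. The 5 in WT hearts came without WT TAC mouse 10, and the lower count there was 0 without any other WT heart, KI sham mouse 3 or KI TAC mouse 6. In KI hearts the count was 5 without KI sham mouse 1, 2 or 3 or KI TAC mouse 5 or 6, and 13 without KI TAC mouse 7. Between the TAC groups the 4 came without WT TAC mouse 9 and the 1 without WT sham mouse 2 or 3, WT TAC mouse 7 or 10, KI sham mouse 3 or KI TAC mouse 5 or 6. A group left with 2 mice shares the spread of the other groups. The share of all genes called is not given for fits without a mouse, so these counts have no background.

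The sham groups share mouse numbers 1, 2 and 3, and same-numbered sham mice correlated at −0.22, −0.30 and 0.44 in their deviations, so that these numbers were not taken to pair the mice. A replicate block on them called 0 members, as without it. The TAC groups share number 7 alone, which allows no block and was not checked. Isg15 and Ifit1 rest on 13 to 59 reads per library, and the effect of depth on their values was not tested.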
